A study of Mus musculus with 4 samples.

Results

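Excitatory interneurons of the spinal dorsal horn that transcribe Nmu and Tac2 were described in single-nucleus RNA sequencing of mouse spinal cord, in which the transcripts of each nucleus are counted by unique molecular identifiers (UMIs). Members were chosen by a gate on raw UMIs. Kept nuclei had 300 or more genes detected and less than 5% of UMIs from mitochondrial genes. A member had to hold at least 1 UMI of Slc17a6, the vesicular glutamate transporter of these neurons, and none of the inhibitory genes Slc32a1, Gad1, Gad2 and Slc6a5. The summed UMIs of 4 markers, Nmu, Tac2, Rxfp1 and Gna14, then had to reach 3 and to exceed each marker sum of 3 other excitatory groups, here called the Lmo3 and Ptger3 group, the Maf and Bmp6 group and the Car12 group. The gate held 331 of 112194 kept nuclei and 331 of the 12778 nuclei that passed the Slc17a6 and inhibitory steps, which are called the excitatory gate.

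The tissue was microdissected dorsal horn of Gpr37l1-/- (KO) and Gpr37l1+/+ (WT) mice, either naive or taken 1 day after spared nerve injury. In this injury (SNI), used to study neuropathic pain, branches of the sciatic nerve are cut and 1 is left intact. Gpr37l1 encodes a receptor known from astrocytes, and the labels name no cell type or promoter to which the deletion would be limited. The 4 groups were KO SNI, WT SNI, KO naive and WT naive, with 1 library each. Age, sex, the strain background and the number of mice behind a library were not given in the sources used here. With 1 library per group there was no replicate and no test of a condition. Intervals below are 95% intervals for counting error alone, and a difference between groups may be a difference between these libraries. A model with genotype and injury as terms was left out, since its error over 4 libraries would be the interaction alone.

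The libraries held 28019, 27233, 37552 and 19942 barcodes and 43732207, 50416475, 69505916 and 34895742 UMIs in KO SNI, WT SNI, KO naive and WT naive. The deleted gene followed the genotype labels, with 0.253 and 0.333 Gpr37l1 CPM (counts scaled to a library total of 1000000 UMIs) over all kept nuclei of KO SNI and KO naive, against 25.8 CPM in WT SNI and 14.3 CPM in WT naive. The treatment tag contradicted the title for the KO naive and WT SNI libraries, and groups follow the titles. The gate kept 67, 81, 111 and 72 members in KO SNI, WT SNI, KO naive and WT naive, with median UMIs per member of 1874, 2258, 2335 and 1822, above the 1286, 1489, 1510 and 1446 of all kept nuclei in the same order. Member UMIs summed to 144124, 224770, 303465 and 154670. Each pair of libraries shared 162 to 292 barcodes, or 0.730 to 1.05%, and no shared barcode was a member in both libraries of a pair.

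Nmu encodes neuromedin U, a secreted peptide, and mouse Tac2 encodes the precursor of neurokinin B, a tachykinin that acts mainly on the receptor encoded by Tacr3. Rxfp1 encodes a relaxin receptor and Gna14 a G protein subunit of the Gq class, which couples receptors to phospholipase C. In the mouse dorsal horn, neurokinin B is made by excitatory interneurons of the inner part of the superficial laminae, which release glutamate together with their peptides. Such interneurons are sorted by their peptides, and somatostatin, encoded by Sst, is shared by many excitatory kinds. By GENCODE vM21 on GRCm38, Nmu lay at chr5:76333495-76363788, Tac2 at chr10:127724478-127731768, Rxfp1 at chr3:79641611-79737880 and Gna14 at chr19:16435762-16610820.

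The 250 bases before the RefSeq gene start are printed for the 3 markers that have a promoter entry, because these genes define the population. They read 5′ to 3′ on the strand of the gene in GRCm38.p6. The windows are chr5:76363778-76364027 on the minus strand for Nmu, chr10:127724228-127724477 on the plus strand for Tac2 and chr19:16435417-16435666 on the plus strand for Gna14. Capitals mark matches to CACGTG and TGACG in Nmu, and to CAGCTG in Tac2 and Gna14.
Nmu: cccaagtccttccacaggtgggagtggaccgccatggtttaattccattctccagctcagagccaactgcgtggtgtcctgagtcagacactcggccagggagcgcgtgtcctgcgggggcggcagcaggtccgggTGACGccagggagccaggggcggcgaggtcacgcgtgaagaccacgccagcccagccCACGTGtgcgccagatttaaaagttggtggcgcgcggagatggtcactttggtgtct
Tac2: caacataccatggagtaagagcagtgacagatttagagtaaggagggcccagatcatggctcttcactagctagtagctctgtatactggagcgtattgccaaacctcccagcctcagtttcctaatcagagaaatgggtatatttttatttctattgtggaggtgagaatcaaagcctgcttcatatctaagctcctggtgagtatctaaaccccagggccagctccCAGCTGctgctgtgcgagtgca
Gna14: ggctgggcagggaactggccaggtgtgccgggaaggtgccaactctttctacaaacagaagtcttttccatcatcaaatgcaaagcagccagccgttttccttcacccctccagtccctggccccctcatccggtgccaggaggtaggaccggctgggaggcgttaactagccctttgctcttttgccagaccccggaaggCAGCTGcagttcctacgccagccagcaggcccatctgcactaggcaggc
CAGCTG and CACGTG are E-box forms, TGACG is the core of the cAMP response element, and TAATTA is a homeodomain core. Both strands were searched, and no 2 of the motifs overlapped in these windows. Of 32851 mouse windows of the same length, 13.0% held CAGCTG, 6.02% CACGTG, 17.8% TGACG and 4.84% TAATTA. Tac2 and Gna14 thus shared 1 E-box form, Nmu held the other, and TAATTA was in none of the 3.

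The label was checked first against the gate markers. Tac2 was the marker that most members held, with a UMI in 91.0% of KO SNI, 88.9% of WT SNI, 81.1% of KO naive and 72.2% of WT naive members. Nmu was present in 52.2% of KO SNI, 44.4% of WT SNI and 40.5% of KO naive members and in 36 of 72 WT naive members, Gna14 in 35.8%, 35.8%, 39.6% and 34.7%, and Rxfp1 in 26.9%, 29.6%, 26.1% and 30.6%, in the same order of libraries. In summed UMIs Tac2 reached 1290, 1631, 1181 and 1313 CPM, Nmu 502, 282, 281 and 516 CPM, Gna14 265, 220, 228 and 222 CPM, and Rxfp1 195, 139, 175 and 268 CPM. These values follow from the gate and are a description. Across libraries Gna14 varied least, and Nmu was highest in WT naive and KO SNI and lower in WT SNI and KO naive.

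**Figure D1:**
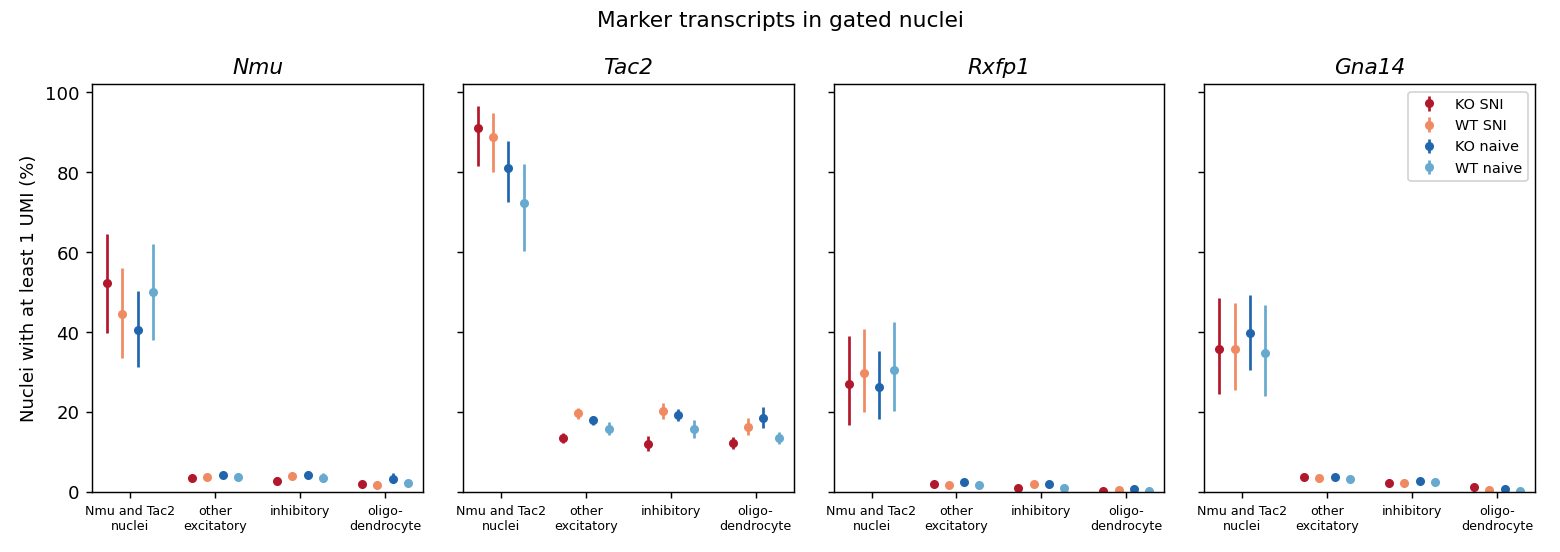
Gate markers in the members and in other gated nuclei. Each panel is a gene, the y axis gives the percent of nuclei with at least 1 UMI of it, the x axis gives the population, and each coloured point is a library with its 95% Clopper-Pearson interval. Tac2 reached 91.0% of KO SNI members, while 12.2 to 18.6% of oligodendrocyte-gate nuclei also held a Tac2 UMI.

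The name fits some members better than others. Of the 331 members, 316 held Nmu or Tac2 and 111 held both, namely 30 in KO SNI, 28 in WT SNI, 31 in KO naive and 22 in WT naive. The most frequent single pattern was Tac2 alone, in 83 members (13 in KO SNI, 22 in WT SNI, 31 in KO naive and 17 in WT naive). Nmu with Tac2 followed with 51, Tac2 with Gna14 with 36 and Nmu with Tac2 and Gna14 with 34. At least 2 of the markers were detected in 226 members, at least 3 in 78, and all 4 in 7. A total of 15 members held neither Nmu nor Tac2 and entered through Rxfp1 and Gna14.

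Many members sat at the threshold. The marker sum was exactly 3 in 27 of 67 KO SNI, 22 of 81 WT SNI, 40 of 111 KO naive and 35 of 72 WT naive members, and over 4 in 31, 45, 46 and 28 members. Just outside the gate, 84, 130, 161 and 45 nuclei had a sum of 2 in KO SNI, WT SNI, KO naive and WT naive, and all of those UMIs were Tac2 in 39.3%, 53.1%, 42.9% and 44.4% of them. Just inside, at a sum of 3, the UMIs were all Tac2 in 22.2%, 27.3%, 27.5% and 22.9%. WT naive was the library with the fewest nuclei just outside and the largest part of its members just inside.

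Tac2 RNA was also found where it should be absent. In a gate of oligodendrocyte nuclei, 12.2% (KO SNI), 16.3% (WT SNI), 18.6% (KO naive) and 13.4% (WT naive) held a Tac2 UMI, with medians of 760, 904.5, 909.5 and 772 UMIs per nucleus. The other nuclei of the excitatory gate had 13.5%, 19.6%, 17.9% and 15.7%, at higher medians of 1560, 1769, 1697.5 and 1757.5 UMIs. After thinning every nucleus to 1000 UMIs, Tac2 was detected in 67.2%, 71.6%, 55.0% and 58.3% of members, against 11.1%, 14.7%, 18.6% and 11.9% of oligodendrocyte-gate nuclei, in the order KO SNI, WT SNI, KO naive and WT naive. The other nuclei of the excitatory gate then had 7.64%, 10.68%, 10.25% and 8.31%, below the oligodendrocyte gate in every library. Low Tac2 detection outside the members was thus not above that of oligodendrocyte nuclei at this depth. Nmu was rarer than Tac2 in the oligodendrocyte gate. Thinned Nmu was detected in 34.4%, 28.4%, 23.9% and 37.5% of members, against 1.95%, 1.02%, 1.92% and 1.26% of oligodendrocyte-gate nuclei, which without thinning gave 1.83%, 1.78%, 3.27% and 2.13%. In the other nuclei of the excitatory gate thinned Nmu was detected in 2.2%, 2.3%, 2.4% and 1.7%. The member values of both genes follow from the gate, also after thinning, and are a description. A marker sum of 3 or more was reached by 1, 1, 1 and 8 nuclei of the 1917, 1296, 856 and 1972 in the oligodendrocyte gate, and by 10, 25, 42 and 14 nuclei of the 1323, 1675, 2529 and 1125 in an inhibitory gate. The inhibitory shares were 0.756%, 1.49%, 1.66% and 1.24%, and those of the whole excitatory gate 2.38%, 2.88%, 2.74% and 3.72%. Depth was not held fixed in these shares.

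Joint detection of the markers within the excitatory gate is given as a description, since the gate uses the same UMIs and depth was not held fixed. Gna14 was detected in 11.4%, 15%, 15.6% and 20.0% of nuclei with an Nmu UMI, against 4.04%, 3.62%, 3.88% and 3.31% of nuclei without one, ratios of 2.81, 4.15, 4.00 and 6.04 in KO SNI, WT SNI, KO naive and WT naive. The same ratio was 2.91, 4.92, 2.42 and 4.20 for Rxfp1 by Nmu, and lower for Tac2 by Nmu at 2.67, 1.64, 1.20 and 1.76. Against markers of the Lmo3 and Ptger3 group, Nmu gave 0.904, 1.20, 0.799 and 0.708, and against those of the Maf and Bmp6 group 0.931, 1.07, 0.972 and 1.32. Nuclei with more UMIs hold more of any gene, and these ratios are therefore set only beside each other. The Nmu ratios with Gna14 and Rxfp1 were above those with the Lmo3 and Maf lists in all 4 libraries, and the Nmu ratio with Tac2 was not above that with the Car12 list in KO naive, at 1.20 and 1.31, or in WT SNI and WT naive, where the Car12 list gave 1.86 and 1.84. Among nuclei with a Gna14 UMI, the ratio was 1.56, 1.62, 1.74 and 1.96 for the Lmo3 and Ptger3 list. For Tac2 by Gna14 it was 2.29, 1.48, 1.48 and 1.47, above that list in KO SNI alone.

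Markers of neurons, glia and other cells were measured next. Slc17a6, Lmx1b and Tlx3, where Lmx1b and Tlx3 are transcription factors of dorsal excitatory neurons, summed to 683, 542, 533 and 718 CPM in KO SNI, WT SNI, KO naive and WT naive. Tlx3 alone rested on 2, 10, 5 and 4 UMIs. The 4 neuronal genes Snap25, Syt1, Rbfox3 and Map2 summed to 3367, 3442, 3984 and 3324 CPM. Oligodendrocyte markers were all 7 detected in every library and summed to 1171, 1470, 1410 and 1280 CPM in members, against 1768, 1864, 2162 and 1679 CPM in the other nuclei of the excitatory gate. The 6 astrocyte markers summed to 307, 238, 278 and 222 CPM with Gfap at 0 in KO SNI and WT naive and Gja1 at 0 in KO naive. The 7 microglial markers summed to 272, 157, 96.0 and 176 CPM and were highest in KO SNI. Of the list for cholinergic and motor neurons, Chat was at 0 in all 4 libraries. Slc5a7, Slc18a3 and Prph had 1, 2 and 2 UMIs in KO SNI members and none in members of the other libraries. The part of glial RNA in the results below was not tested.

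Members made up 2.31% of the excitatory gate in KO SNI (interval 1.79 to 2.92), 2.56% in WT SNI (2.04 to 3.17), 2.38% in KO naive (1.96 to 2.86) and 3.52% in WT naive (2.77 to 4.42). WT naive was highest, and its interval overlapped those of the other 3 libraries. Of all kept nuclei the shares were 0.240%, 0.299%, 0.296% and 0.366%. The order rested on the threshold. With a minimum of 4 marker UMIs the shares were 1.38%, 1.87%, 1.52% and 1.81%, and WT naive was no longer highest, while with a minimum of 2 they were 5.20%, 6.67%, 5.83% and 5.72%. After thinning to 1000 UMIs they were 1.48%, 1.20%, 1.10% and 2.49%, from 20 of 1352, 17 of 1419, 21 of 1916 and 23 of 924 nuclei. No single order of the 4 groups held across these choices.

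**Figure D2:**
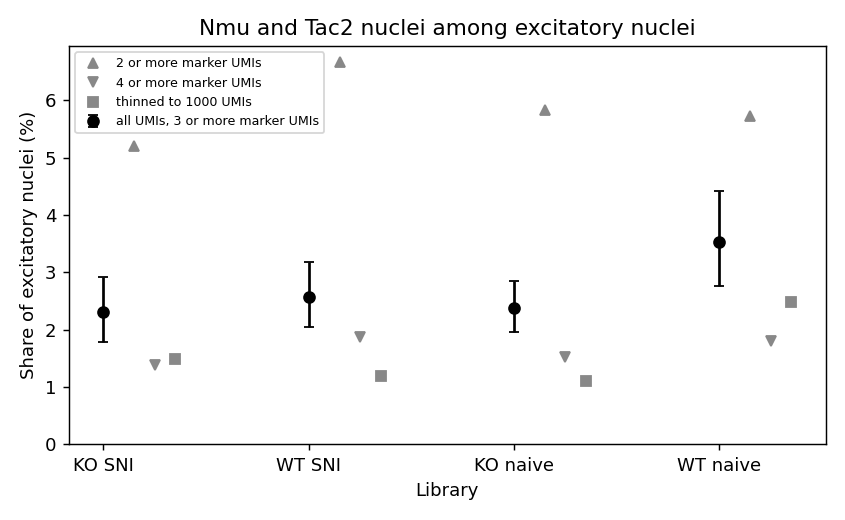
Share of the Nmu and Tac2 nuclei in the excitatory gate. The x axis gives the 4 libraries and the y axis the percent of excitatory-gate nuclei. Black points with 95% Clopper-Pearson bars stand for the gate at 3 marker UMIs, and grey points for marker minimums of 2 and 4 UMIs and for thinning to 1000 UMIs. WT naive was highest at 3 UMIs (3.52%) and after thinning (2.49%) but not at 2 or 4 UMIs.

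The members were next compared with the 3 other gated excitatory groups together, which held 597, 376 and 129 nuclei, by the ratio of CPM within each library. Among 3664 genes with at least 200 UMIs, and without the 23 gate genes and the mitochondrial genes, 23 genes (0.628%) were at least 2-fold higher in the members in all 4 libraries and 8 (0.218%) at least 2-fold lower. The members had more Trpm3, Gabrg3, Kcnc2, Plcb1, Chgb and Sst, which cover a cation channel, an inhibitory receptor subunit, a potassium channel, a signalling enzyme and secreted cargo. They had less Erbb4, Tafa1, Galntl6, Sphkap and Dpp10. The gate sets this contrast, so no p-value was computed. The median log2 ratio of all tested genes was -0.02, and under median-of-ratios scaling it was -0.11, with 14 genes higher. Without nuclei holding glial markers 15 genes were higher.

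Trpm3, which encodes a cation channel opened by heat and by the steroid pregnenolone sulphate, was the most abundant of these genes. It lay at chr19:22139046-22995410 and reached 5110, 4427, 5431 and 5028 CPM in members of KO SNI, WT SNI, KO naive and WT naive, against 1481, 1247, 1383 and 1130 CPM in the other groups. A Trpm3 UMI was found in 92.5%, 95.1%, 98.2% and 91.7% of members. The log2 ratios were 1.79, 1.83, 1.97 and 2.15, and the member and comparison values did not overlap. Most other neurons held the gene too, and a Trpm3 UMI was found in 56.1%, 57.6%, 73.0% and 51.6% of the Lmo3 and Ptger3 group and in 70.2%, 72.8%, 79.7% and 69.2% of the inhibitory gate, without thinning to 1 depth.

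C1ql3, a secreted organiser of synapses, had 167, 197, 106 and 287 CPM in members, against 57.0, 60.4, 33.5 and 58.6 CPM in the other groups, with log2 ratios of 1.55, 1.71, 1.66 and 2.29. Its values did not overlap between the populations, and WT naive was highest among the members. Chgb, a granin of dense-core vesicles that carry peptides, had 565, 520, 391 and 483 CPM in members at log2 ratios of 1.58, 1.90, 1.56 and 1.24. Schip1, a cytoskeletal protein of the axon initial segment, had 1227, 910, 1129 and 1006 CPM at 1.56, 1.15, 1.55 and 1.55.

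Receptor, channel and signalling genes formed the next group. Gabrg3, a gamma subunit of GABA-A receptors, had 1827, 1622, 2078 and 1776 CPM in members, against 541, 504, 628 and 649 CPM in the other groups. Kcnc2, a fast delayed-rectifier potassium channel, had 1450, 1313, 1446 and 1437 CPM, against 482, 440, 571 and 522 CPM. Kcnc2 was among the steadiest of the genes across libraries. Kcnt2, a potassium channel opened by sodium, had 572, 551, 758 and 588 CPM in members at log2 ratios of 1.08, 1.15, 1.32 and 1.23. Plcb1, the phospholipase C that Gq-class subunits such as Gna14 activate, had 1304, 1380, 1569 and 1293 CPM, against 474, 479, 553 and 490 CPM. Grk3, a kinase that desensitises receptors, gave log2 ratios of 1.79, 1.20, 1.47 and 2.16, and Deptor, an inhibitor of mTOR, gave 1.57, 1.79, 1.47 and 1.46.

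Some of the higher genes act in adhesion or at the cell surface, although the adhesion and guidance list as a whole, given further on, was not shifted. Kirrel3, an immunoglobulin-type adhesion molecule of synapse formation, had 3103, 2648, 3174 and 3062 CPM in members, against 1156, 1097, 1378 and 1085 CPM. Log2 ratios were 1.45, 1.38, 1.17 and 1.08 for Cntnap5b, a contactin-associated protein, and 1.46, 1.23, 1.19 and 2.84 for Ust, a sulfotransferase of proteoglycan chains. Cdh10, a cadherin, gave 1.37, 1.13, 1.07 and 1.53, Sema3c, a secreted semaphorin, gave 1.01, 1.17, 1.94 and 1.47, and Ptprt, a receptor phosphatase, gave 1.32, 1.64, 1.57 and 1.08. The spread was widest for Ust, whose WT naive ratio stood apart from the other libraries. The remaining genes at least 2-fold higher were 9630028H03Rik, B230216N24Rik, Peak1, Pdzrn4 and Pld5.

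**Figure D3:**
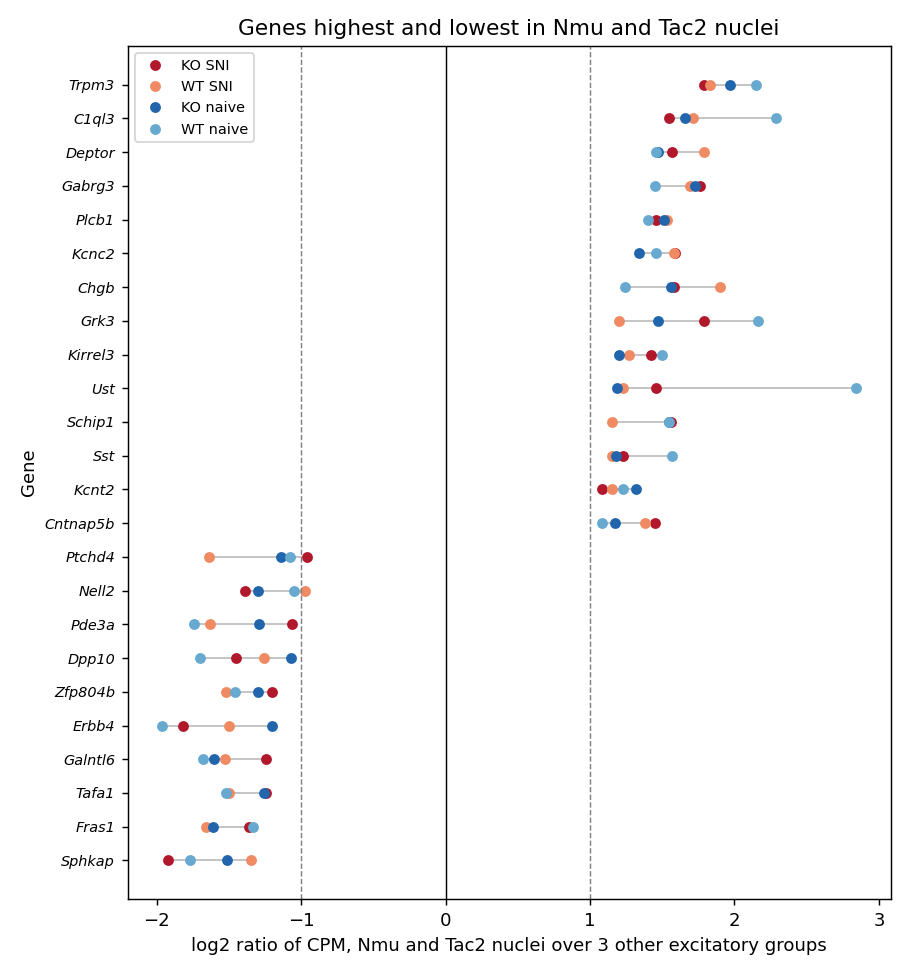
Genes with the highest and lowest ratios in the type comparison. Each row is a gene, the x axis is the log2 ratio of CPM in members over the 3 other gated excitatory groups, and each point is 1 library, with dashed lines at 2-fold. Trpm3 lay between 1.79 and 2.15, and Erbb4 between -1.96 and -1.20.

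Somatostatin RNA was high in these libraries also outside neurons. Sst had 272, 426, 245 and 601 CPM in members of KO SNI, WT SNI, KO naive and WT naive, against 116, 193, 108 and 203 CPM in the other excitatory groups, with a UMI in 43.3%, 58.0%, 38.7% and 61.1% of members. The log2 ratios were 1.23, 1.15, 1.18 and 1.57. Both WT libraries were above both KO libraries. Nuclei of the oligodendrocyte gate had 269, 326, 218 and 303 Sst CPM and an Sst UMI in 20.4%, 27.2%, 18.9% and 22.4% of nuclei, at the lower depth given above. In KO SNI and KO naive the member level was close to that of the oligodendrocyte gate. The inhibitory gate, with medians of 2152 to 2530 UMIs per nucleus, had 90.4 to 148 Sst CPM, below the members. CPM of nuclei of unlike depth cannot settle whether Sst was above background, and the part of background RNA was not tested. Against all other excitatory-gate nuclei in place of the 3 groups, the median log2 ratio of Sst was 0.92.

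Set against each group on its own, the higher genes were apart from most of them. The genes were picked by their ratio to these same groups pooled, so the counts below are a description. The share over all tested genes was not computed. All 15 of the highest had member values above the library range of the Lmo3 and Ptger3 group and of the Maf and Bmp6 group, and all 15 above that of the inhibitory gate. Against the Car12 group 11 of 15 did not overlap, and Deptor, Gabrg3, Grk3 and Sst did. Gabrg3 was at 1779 to 2202 CPM in the Car12 group, overlapping the members. Of the 23 higher genes, 15 were above all 3 groups. The Car12 group, with 24, 29, 43 and 33 nuclei, thus overlapped the members in more of these genes than the other groups did. It also gave the fewest nuclei to the pool by which the genes were picked.

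**Figure D4:**
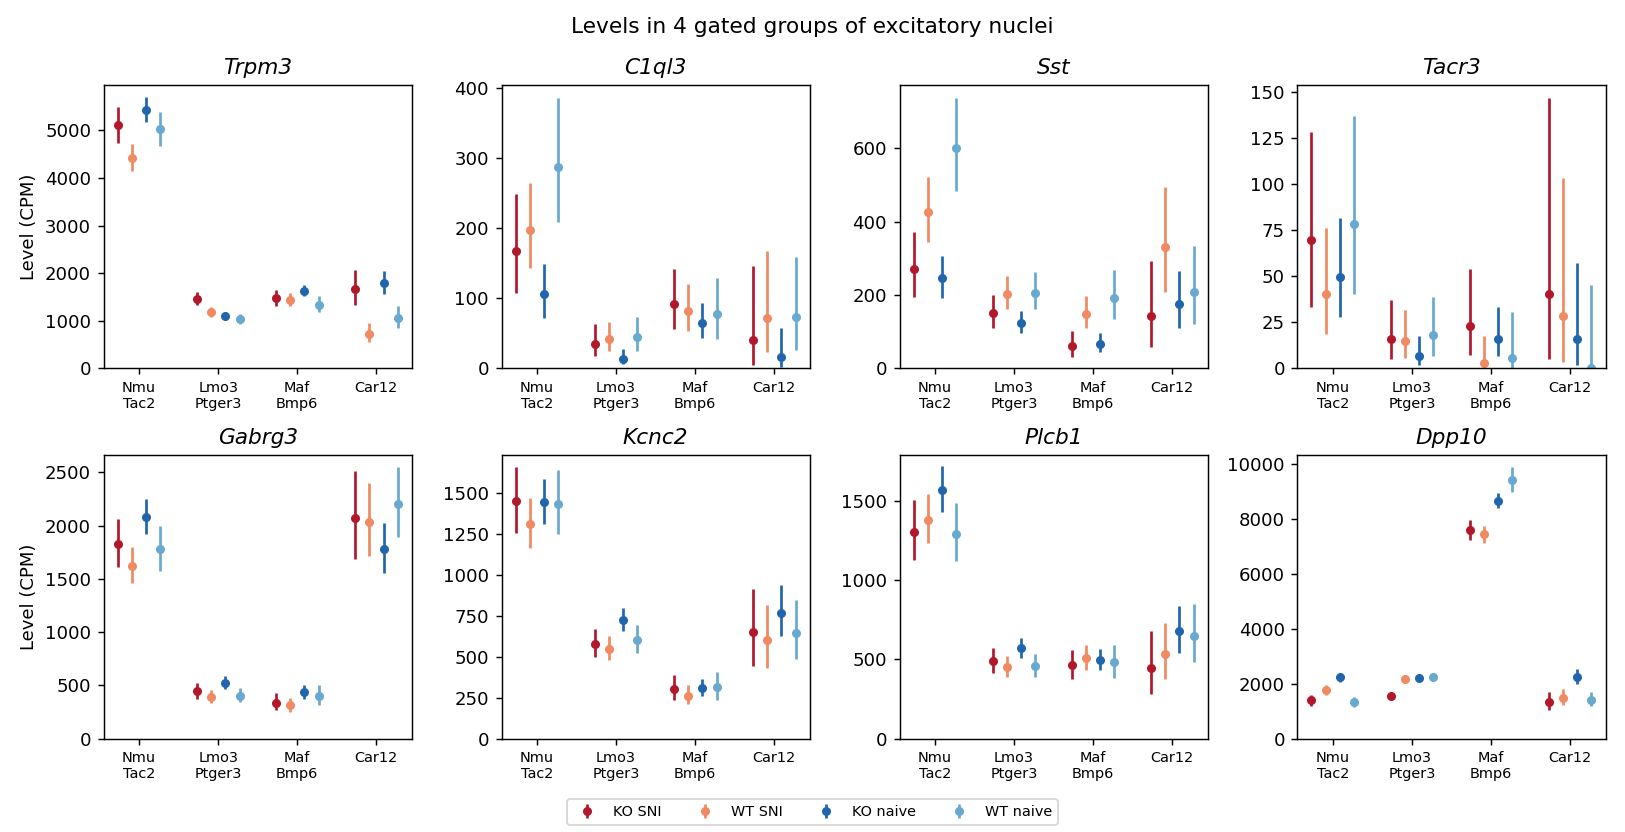
Levels of 8 genes by population. The y axis of each panel is CPM, each point is the summed UMIs of 1 library with its exact Poisson interval, and the x axis gives the members and the 3 other gated excitatory groups. Trpm3 reached 4427 to 5431 CPM in members, Gabrg3 and Sst of the Car12 group overlapped the members, and Dpp10 was highest in the Maf and Bmp6 group at 7435 to 9426 CPM.

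Fewer genes were lower. Erbb4, the neuregulin receptor, had 404, 435, 629 and 313 CPM in members, against 1428, 1232, 1447 and 1218 CPM in the other groups, with log2 ratios of -1.82, -1.50, -1.20 and -1.96. Tafa1, a secreted brain protein, had 586, 471, 649 and 483 CPM, against 1383, 1328, 1558 and 1386 CPM. Galntl6, a glycosyltransferase family member, had 1116, 735, 894 and 1032 CPM, against 2631, 2117, 2712 and 3309 CPM. Of the 10 genes with the lowest ratios, only Erbb4 was below all 3 groups in library range. Sphkap, which anchors protein kinase A, had 112, 166, 106 and 131 CPM in members, against 422, 423, 302 and 445 CPM. Fras1, Zfp804b and Pde3a were also lower. The comparison mattered for the lower genes. Against all other excitatory-gate nuclei none of the 8 was 2-fold lower in all 4 libraries, and the median log2 ratio was -1.15 for Erbb4, -0.76 for Tafa1, -0.72 for Galntl6 and -0.87 for Sphkap. Of the 23 higher genes, 14 were called in that comparison too.

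The pooled Dpp10 ratio differed by group. Dpp10, an auxiliary subunit of A-type potassium channels, had 1387, 1761, 2227 and 1326 CPM in members, against 3792, 4206, 4668 and 4308 CPM in the other groups together. The Maf and Bmp6 group alone had 7435 to 9426 CPM. The Lmo3 and Ptger3 group had 1540 to 2237 CPM and the Car12 group 1340 to 2248 CPM, and both overlapped the members. Among the 3 groups, Dpp10 of the members was thus below the library range of the Maf and Bmp6 group alone, and against all other excitatory-gate nuclei its median log2 ratio was -0.90.

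The gene lists were read against all tested genes, of which 465 were above 0 and 562 below 0 in all 4 libraries. Of all tested genes 0.628% were at least 2-fold higher and 0.218% at least 2-fold lower. Of 5 tested peptide precursors, Sst was at least 2-fold higher and none lower, and the list median was -0.13. Nts, the neurotensin precursor, gave log2 ratios of 0.91, 0.33, 1.25 and 1.82, while Tac1, the substance P precursor, gave -0.35, -0.86, -0.97 and -0.57, and Penk, the enkephalin precursor, gave -0.42, -0.38, -0.52 and -0.71. Tac1 was thus below the pooled other groups in every library, while the direction of Tac2, a gate marker, was set by the gate. The library range of Tac1 in members, 36.4 to 58.8 CPM, was below that of the Lmo3 and Ptger3 group, 97.0 to 139 CPM. It overlapped the ranges of the Maf and Bmp6 group, 27.6 to 39.4 CPM, and of the Car12 group, 24.5 to 63.5 CPM. Of 6 amine and cannabinoid receptors none was past 2-fold in all 4 libraries, with a median of -0.57. Chrm2, a muscarinic receptor, was higher at 0.92, 0.94, 0.82 and 0.57, and Htr4 and Chrna7 were below 0 in every library.

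Among 24 G protein and second messenger genes, Plcb1 was higher and none was lower at 2-fold, with a list median of 0.01. Itpr1, the calcium release channel downstream of phospholipase C, gave 0.92, 0.54, 0.49 and 0.84, and Plcb4, another phospholipase C, gave -1.06, -0.43, -0.63 and -0.79. Of 24 transcription factors none was past 2-fold in all 4 libraries, with a median of 0.11 and 9 above and 7 below 0 throughout. Tshz3, a zinc-finger factor, gave 1.06, 1.11, 0.86 and 1.60, Ebf2 gave 0.98, 0.82, 0.83 and 0.96, and Tshz2 gave 0.92, 0.70, 0.69 and 0.86. Bnc2 was at -1.63, -2.36, -0.32 and -1.91. Of 10 lamina and calcium-binding genes Sst was past 2-fold, Prkca, a protein kinase C, gave 0.87, 1.09, 1.09 and 1.07, and Reln, a secreted matrix protein, gave -2.88, -0.38, -1.01 and -4.50 on few UMIs.

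Receptor and channel lists were mixed. Of 19 glutamate receptor genes none was past 2-fold in all 4 libraries, with 7 above and 4 below 0 throughout and a median of 0.09. Grid1, a delta-type glutamate receptor, gave 1.29, 1.16, 0.95 and 1.13, and Grik1, a kainate receptor, gave -1.18, -1.85, -0.85 and -1.40. Of 15 GABA and glycine receptor genes Gabrg3 was higher, Gabrb1 gave 0.69, 0.58, 0.73 and 1.00, and Glra1 gave -0.70, -0.99, -1.04 and -0.20. Of 29 potassium and HCN channel genes Kcnc2 and Kcnt2 were higher and Dpp10 lower, and Kcnip4, a channel-interacting protein, gave -0.93, -0.79, -0.58 and -1.25. Of 27 sodium, calcium and TRP channel genes Trpm3 was higher, with a median of -0.07, and of 51 adhesion and guidance genes 4 were higher and none lower, with 12 above and 20 below 0 throughout. Dcc, the netrin receptor, gave -1.20, -1.07, -0.83 and -1.79. No list median but that of the amine receptors and that of the lamina genes, 0.40, was more than 0.2 from that of all genes.

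Genes below the UMI minimum, named after their values were seen, include the receptor of the population's own peptide. Tacr3, which encodes the neurokinin B receptor and lay at chr3:134829007-134934579, had 69.7, 40.3, 49.6 and 78.4 CPM in members, or 46 UMIs in all, against 41 UMIs in the other groups. The log2 ratios were 1.75, 1.83, 2.12 and 2.74. A Tacr3 UMI was found in 7 of 67 KO SNI, 8 of 81 WT SNI, 12 of 111 KO naive and 10 of 72 WT naive members. Tacr3 was higher in the members than in the other groups together in each library, although few members held a transcript. The library range of the Car12 group alone, 0 to 40.6 CPM, overlapped that of the members. Cnr1, the cannabinoid receptor of nerve terminals, gave log2 ratios of 1.66, 0.97, 1.62 and 0.86 on 11, 11, 18 and 7 UMIs. Its range of 45.7 to 76.7 CPM in members also overlapped that of the Car12 group, 14.3 to 61.2 CPM.

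The members differed among themselves by which marker they held, and these subsets share the gate. Members with an Nmu UMI had 5222, 5446, 6645 and 7766 Trpm3 CPM in KO SNI, WT SNI, KO naive and WT naive, against 4997, 3668, 4614 and 3007 CPM in members without one. Over the libraries the log2 ratio was 0.60 (interval 0.51 to 0.69), and it was larger in WT naive than in KO SNI. Kirrel3 and Kcnc2 were each at 0.60, Kcnt2 at 0.56, Gabrg3 at 0.48 and Ust at 0.99 in Nmu-holding members over the others. Galntl6 at -1.07, Ptchd4 at -1.06, Nell2 at -1.27 and Dpp10 at -0.65 went the other way. Not every gene of the type comparison followed: among the higher ones Chgb was at -0.59, Sst at -0.43 and Schip1 at -0.08, and among the lower ones Sphkap was at 0.32 and Erbb4 at -0.08.

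Members whose only marker was Tac2 differed most in neurotensin. Nts was at 435 CPM in the 83 Tac2-only members, against 67.4 CPM in the other members, a log2 ratio of 2.69 (interval 2.14 to 3.26). By library it was 487, 284, 326 and 768 CPM, against 122, 67.6, 43.2 and 61.4 CPM, in the order KO SNI, WT SNI, KO naive and WT naive. Few nuclei carried it. Nts was detected in 7 of 13, 2 of 22, 8 of 31 and 6 of 17 Tac2-only members, and in 10 of 54, 4 of 59, 8 of 80 and 5 of 55 other members. The 3 nuclei with the most held 9 of 28, 22 of 25, 15 of 33 and 27 of 37 Nts UMIs of all members. In WT SNI 10 of the 13 Nts UMIs of Tac2-only members lay in 1 nucleus. The interval takes UMIs as independent and does not cover this clumping. Sst was also higher in the Tac2-only members, at 565 CPM against 307 CPM, with a log2 ratio of 0.88 (0.52 to 1.23), and Chgb was at 0.63. Trpm3 was at 4275 CPM in Tac2-only members, against 5245 CPM in other members, so that it was high in both.

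The genotypes were compared within the members by the ratio of CPM in KO to WT, once among SNI and once among naive libraries, which share no library. These are levels per UMI, and a change in the number of nuclei does not enter them. Tested genes had at least 100 UMIs over the 2 libraries of a pair. A total of 29 of 526 tested genes (5.51%) were at least 1.5-fold higher and 18 (3.42%) lower in KO SNI than in WT SNI, and 83 of 736 (11.3%) were higher and 23 (3.12%) lower in KO naive than in WT naive. Only 4 of 522 genes (0.766%) were higher in both pairs, and 1 (0.192%) was lower in both. By direction alone, 251 (48.1%) were above 0 in both pairs and 73 (14%) below 0. The genes higher at 1.5-fold in both included Dtna, Kctd16 and Pknox2, and the gene lower in both was Sst. The medians of all tested genes were 0.11 in the SNI pair and 0.19 in the naive pair, and values below are read against them.

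Dtna, a protein of the dystrophin complex, had 404 CPM in KO SNI, against 188 CPM in WT SNI, and 400.4 CPM in KO naive, against 229 CPM in WT naive. The log2 ratios were 1.10 (0.51 to 1.71) and 0.81 (0.26 to 1.40), while the rest of the excitatory gate gave 0.18 and 0.38. Both KO libraries were above both WT libraries. Kctd16, an auxiliary subunit of GABA-B receptors, had 697 CPM in KO SNI, against 426 CPM in WT SNI, and 626 CPM in KO naive, against 300.4 CPM in WT naive, at 0.71 (0.29 to 1.13) and 1.06 (0.59 to 1.56). In the rest of the excitatory gate Kctd16 was at 0.03 and 0.34. Pknox2, a homeodomain factor, was at 0.66 (0.14 to 1.18) and 0.69 (0.11 to 1.30), against 0.08 and 0.20 in the rest of the excitatory gate. In the SNI pair each of these 3 genes was under 1.5-fold under at least 1 alternative setting, with lowest values of 0.47 for Dtna, 0.26 for Kctd16 and 0.17 for Pknox2. In the naive pair the lowest were 0.64, 0.68 and 0.15 in the same order of genes. All 3 were above 0 under every setting tried in both pairs, and only in the naive pair did Dtna and Kctd16 stay past 1.5-fold under all of them. The lowest Pknox2 value in the naive pair, 0.15, was below the median of all genes given above, 0.19.

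**Figure D5:**
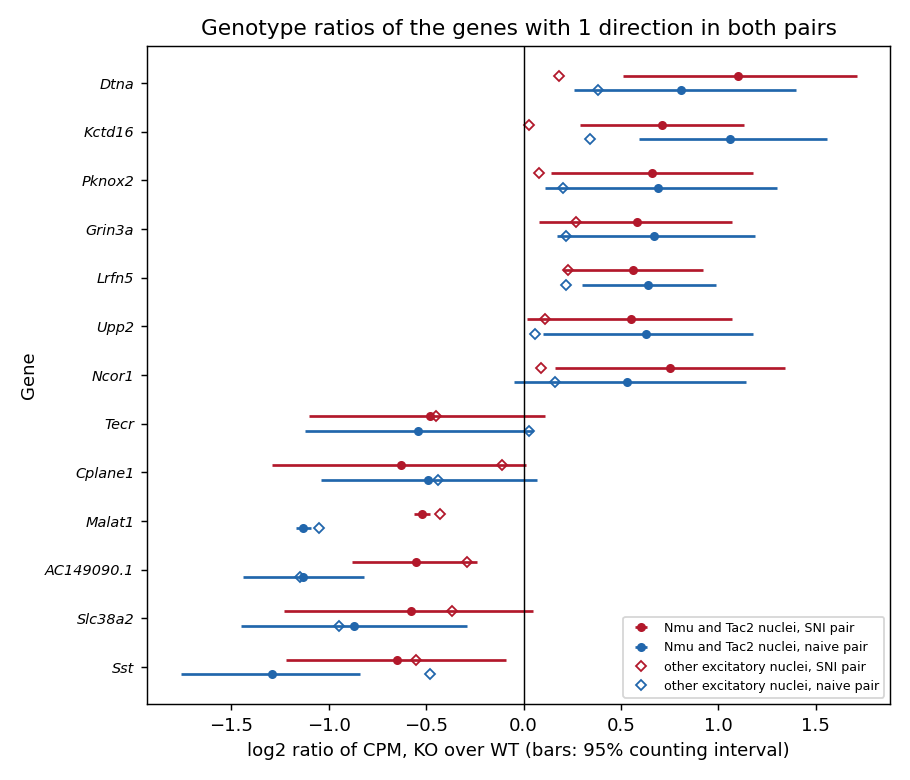
KO over WT ratios of the genes named for genotype. Each row is a gene, the x axis is the log2 ratio of CPM with the counting interval, and open diamonds give the same ratio in the rest of the excitatory gate, with no interval. The member ratios of Kctd16 were 0.71 in the SNI pair and 1.06 in the naive pair, right of their diamonds at 0.03 and 0.34, while the Malat1 ratios lay close to theirs.

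Sst was lower in KO, with a log2 ratio of -0.65 (-1.22 to -0.09) in the SNI pair and -1.29 (-1.76 to -0.84) in the naive pair. The rest of the excitatory gate was also lower, at -0.55 and -0.48. A list of 8 abundant cytoplasmic transcripts moved the same way, at 1374 CPM in KO SNI, against 1672 CPM in WT SNI, and 990 CPM in KO naive, against 1306 CPM in WT naive, and mitochondrial UMIs made up 0.479%, 0.717%, 0.423% and 0.985% of member UMIs in KO SNI, WT SNI, KO naive and WT naive. Their part in these ratios was not tested. Malat1, a nuclear long noncoding RNA and the most abundant transcript, had 50016 CPM in KO SNI, against 71577 CPM in WT SNI, and 36445 CPM in KO naive, against 79780 CPM in WT naive, with -0.43 and -1.05 in the rest of the excitatory gate. A lower Malat1 level raises the CPM of every other gene, and its part in the ratios was not tested. Other genes of 1 sign in both pairs were Grin3a at 0.58 and 0.67, Lrfn5 at 0.56 and 0.64, Upp2 at 0.55 and 0.63 and Ncor1 at 0.75 and 0.53, each for SNI and then naive. On the lower side were Slc38a2 at -0.58 and -0.87, AC149090.1 at -0.55 and -1.13, Cplane1 at -0.63 and -0.49, and Tecr at -0.48 and -0.54, and Cplane1 was above 0 in the naive pair after thinning.

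By list, the clearest set of values was for potassium and HCN channels in the naive pair. There 6 of 17 tested genes were at least 1.5-fold higher in KO naive than in WT naive and none was lower, with a list median of 0.47, against 11.3% and 0.19 for all genes. They were Kctd16 at 1.06, Kcnd2 at 0.82, Kcnb2 at 0.78, Dpp10 at 0.75, Kcnq3 at 0.64 and Kcnq5 at 0.63. In the SNI pair 2 of 16 were higher, Kctd16 at 0.71 among them, and none was lower, against 5.51% and 3.42% for all genes. The list median there was 0.07, against 0.11 for all genes, so the list as a whole was not shifted up in the SNI pair. The list counts Kctd16, the auxiliary subunit of GABA-B receptors named above. Of 35 adhesion and guidance genes in the naive pair 6 were higher, led by Dcc at 1.14 and Cntn4 at 0.90, and Nrxn2 was lower at -0.65. The shares of all genes there were 11.3% higher and 3.12% lower. Of 31 in the SNI pair 2 were higher, Cdh8 at 0.70 and Cntn3 at 0.60, near the 5.51% of all genes.

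Glutamate receptor genes were higher in 2 of 13 in the SNI pair, with Grin2a at 0.82 among them, against 5.51% of all genes, and in 3 of 16 in the naive pair, against 11.3% of all genes, Grm8 at 0.72, Grin3a at 0.67 and Grik1 at 0.62. Of 11 transcription factors in the naive pair, Tcf4 at 0.84 and Meis1 at 0.59 were higher and Zfhx3 at -1.12 was lower, against 11.3% and 3.12% of all genes. Gabra2, a GABA-A receptor subunit, was higher in KO SNI than in WT SNI, at 0.66. It was the 1 of 5 GABA and glycine receptor genes to be so, against 5.51% of all genes. Immediate early, cholesterol, ribosomal and mitochondrial lists had no gene with enough UMIs to be tested.

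Injury was compared within each genotype. In KO SNI over KO naive, 11 of 731 genes (1.5%) were at least 1.5-fold higher and 42 (5.75%) lower, or 20.8% higher of those past the fold, and under median-of-ratios scaling 7 and 57, or 10.9% higher. After thinning the same contrast gave 6 higher and 6 lower of 199 genes, and at a minimum of 300 UMIs 2 and 2 of 175. In WT SNI over WT naive, 22 of 536 (4.1%) were higher and 12 (2.24%) lower, which became 2 and 3 of 159 after thinning and 3 and 7 of 162 without nuclei holding glial markers. The balance of higher and lower genes thus turned on the setting. The medians of all genes were -0.07 in KO and -0.00 in WT. None of 521 genes (0%) was past 1.5-fold in the same direction in both genotypes, while 90 (17.3%) were above 0 and 136 (26.1%) below 0 in both.

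Tmsb4x, an actin-binding peptide gene, came nearest on the higher side, with 321 CPM in KO SNI, 399 CPM in WT SNI, 215 CPM in KO naive and 222 CPM in WT naive. The log2 ratio was 0.58 (-0.00 to 1.14) in KO and 0.85 (0.26 to 1.46) in WT, and the rest of the excitatory gate gave 0.45 in KO and 1.25 in WT. Cntn5, a contactin, had 1102, 1116, 804 and 855 CPM in KO SNI, WT SNI, KO naive and WT naive. Its log2 ratios were 0.45 (0.16 to 0.75) in KO and 0.38 (0.07 to 0.70) in WT, against -0.09 and -0.16 in the rest of the excitatory gate. Kcnj3, a G protein-gated potassium channel, was lower, with 321, 238, 457 and 379 CPM in the same order and ratios of -0.51 (-1.02 to -0.02) in KO and -0.67 (-1.24 to -0.11) in WT. Both SNI libraries were above both naive libraries for Cntn5 and below both of them for Kcnj3. Tmsb4x is itself among the cytoplasmic transcripts above, whose sum was higher in the SNI library of each genotype.

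Other genes also had 1 sign in both genotypes. For Cntn5, Rufy3, B3galt1, Dock10, Ctnna3, Nr3c2, Cspp1, Elmo1, Ebf3 and Hdac9 the sign turned in 1 genotype under at least 1 alternative setting. Higher after injury, as KO and then WT, were Rufy3 at 0.50 and 0.41, B3galt1 at 0.31 and 0.62, Npas3 at 0.31 and 0.57, Dock10 at 0.34 and 0.40, Klhl29 at 0.34 and 0.37 and Ctnna3 at 0.29 and 0.30. Lower were Nr3c2, the mineralocorticoid receptor, at -0.38 and -0.86, Cspp1 at -0.40 and -0.43, Elmo1 at -0.37 and -0.39, Ebf3 at -0.36 and -0.46, Rbfox3 at -0.36 and -0.41, Snrnp70 at -0.36 and -0.43 and Hdac9 at -0.35 and -0.67. Among other listed genes past 1.5-fold in 1 genotype, Cacnb2 at 1.08, Tcf4 at 0.85, Cdh13 at 0.77 and Dcc at 0.63 were higher and Epha6 at -0.70 was lower in WT. In KO, Gabra2 at 0.63 was higher and Kcnh7 at -0.79, Unc5c at -0.71, Dpp10 at -0.68 and Nrxn3 at -0.63 were lower. Whether these differ between the genotypes was not tested. Each injury contrast shares a library with each genotype pair, so injury and genotype ratios of a gene, as for Cacnb2, Tcf4, Dcc and Dpp10, are not independent.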

How the data were processed

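Single nuclei of microdissected mouse dorsal horn were captured with 10x Genomics 3' chemistry (v3.1) on 4 libraries, per the labels' protocols. The deposited values are raw UMI counts of 32285 genes for called barcodes, and per the file headers Cell Ranger 7.0.0 made them. Per the submitters' processing notes, R 4.3.0, Seurat 4.3.0 and the GRCm38 build were used, with no role given, and whether intronic reads were counted is not given in the sources used here. Empty droplets were not used and no background RNA was subtracted.

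Of 112746 barcodes, 112194 passed the minimum of 300 genes and the limit of 5% mitochondrial UMIs. No cells were clustered and no doublet caller was run. A filter on 3 or more UMIs of oligodendrocyte, astrocyte or microglia markers, or UMIs above the 99th percentile of the library, stood in as an alternative and left out 183 of the 331 members. UMIs were summed per library and population and given as CPM on the total without mitochondrial genes. CPM has exact Poisson intervals, ratios have exact conditional binomial intervals and shares have Clopper-Pearson intervals, each at 95% and for counting error only. In ratios, 3 UMIs took the place of a count of 0. Gate genes, mitochondrial genes and symbols that occur more than once were left out of the tested genes, which needed 200 UMIs (type comparison) or 100 UMIs over the 2 libraries (conditions). The oligodendrocyte gate needed at least 5 UMIs of its markers and the inhibitory gate at least 2 UMIs of Slc32a1, Gad1, Gad2 and Slc6a5. Thinning drew 1000 UMIs per nucleus without replacement and left out shallower nuclei.

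Members, gene lists and comparisons were chosen with earlier results of these data known. Named genes are the gate markers and Gpr37l1, the 15 highest and 10 lowest genes of the type comparison by their least extreme library, up to 4 genes of each list there and up to 3 per condition contrast, and for genotype and injury the 8 highest and 8 lowest genes with 1 sign in both contrasts, some of which are not reported here. The scripts were tested on simulated counts. Sequences come from a RefSeq promoter table of GRCm38.p6, in which Nmu, Tac2 and Gna14 were matched and Rxfp1 was not. Python 3.11.15, numpy 2.4.6, scipy 1.17.1, pandas 2.3.3 and matplotlib 3.10.9 were used.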

Additional observations from a re-analysis of the deposited data

Results flagged for a closer look

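In 3 genes of the members the 2 genotype ratios, or the 2 injury ratios, were past 1.5-fold in opposite directions. The difference between the ratios was not tested, and each value rests on 1 library. Of 522 genes, 3 (0.575%) did so for genotype, and of 521 genes, 1 (0.192%) for injury.

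Etl4 had 237, 601, 457 and 176 CPM in KO SNI, WT SNI, KO naive and WT naive, from 34, 134, 138 and 27 UMIs. After injury its log2 ratio was -0.95 (-1.53 to -0.40) in KO and 1.77 (1.16 to 2.42) in WT. KO over WT was -1.34 (-1.93 to -0.79) in the SNI pair and 1.37 (0.77 to 2.03) in the naive pair. The rest of the excitatory gate had -0.01 and -0.06 for injury in KO and WT, and 0.10 and 0.05 for genotype in the SNI and naive pairs. Etl4 UMIs were in 14, 27, 47 and 14 members, and the 3 nuclei with the most held 18, 56, 32 and 13 of the UMIs.

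Cacnb2, a calcium channel subunit, had 251, 385, 288 and 183 CPM in KO SNI, WT SNI, KO naive and WT naive, with KO over WT at -0.62 (-1.22 to -0.04) in the SNI pair and 0.66 (0.03 to 1.32) in the naive pair. Cadm1, a synaptic adhesion molecule, had 265, 421, 440 and 287 CPM, with -0.67 (-1.25 to -0.11) and 0.62 (0.11 to 1.14). In the rest of the excitatory gate Cacnb2 was at 0.05 and -0.02, and Cadm1 at -0.08 and 0.20.

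In all 3 genes the high libraries were WT SNI and KO naive. These are the libraries whose treatment tag contradicts the title, and the deepest, with median UMIs per member of 2258 and 2335, against 1874 in KO SNI and 1822 in WT naive. The part of either in these values was not tested.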

How the results depend on the processing

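No paired analysis was possible because each group had 1 library and the labels give no replicate numbers. Shares of the excitatory gate, in the order KO SNI, WT SNI, KO naive and WT naive, were 5.20%, 6.67%, 5.83% and 5.72% at a marker minimum of 2 UMIs, 1.38%, 1.87%, 1.52% and 1.81% at 4 UMIs, and 1.48%, 1.20%, 1.10% and 2.49% after thinning. Without nuclei holding other cells' markers KO naive was at 3.00%, and without Tac2-only members, an alternative chosen after seeing the data, WT SNI was at 1.87%, KO naive at 1.71% and WT naive at 2.69%.

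Against all other excitatory-gate nuclei 57 of 10922 genes were higher, 14 of the 23 among them, and 9 were lower, with none of the 8 among them. At a minimum of 50 UMIs 40 of 8896 genes were higher and 15 lower, and under median-of-ratios scaling 14 were higher, all among the 23. Without nuclei holding other cells' markers 15 of 1133 were higher, 12 of the 23 among them. There were 15 lower genes of 2109 at a marker minimum of 4, and 15 of 1268 without the 2 libraries whose tag contradicts their title, an alternative also added after seeing the data. Leaving out 1 library at a time gave 20 to 24 higher and 8 to 15 lower genes, the 15 without KO SNI. Of 300 recomputed type ratios of named genes none changed sign. The median log2 ratio of Sst without Tac2-only members was 0.98.

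Genes past 1.5-fold numbered 47, 106, 34 and 53 in KO SNI over WT SNI, KO naive over WT naive, WT SNI over WT naive and KO SNI over KO naive. They became 187, 332, 172 and 212 at a minimum of 50 UMIs, 1, 19, 1 and 4 at 300 UMIs, 9, 32, 5 and 12 after thinning, and 9, 23, 10 and 18 without nuclei holding other cells' markers, where fewer genes were tested. KO naive over WT naive had 70 at a marker minimum of 4. Of 1024 recomputed condition ratios 71 changed sign, and 1 of these was past 1.5-fold as reported, Hdac9 in WT after injury, at 0.01 without nuclei holding other cells' markers. Kctd16 in the SNI pair was at 0.26 at a marker minimum of 4. In the naive pair, without Tac2-only members, Kctd16 was at 1.77 and Sst at -1.78. Sst in the SNI pair was at -1.51 without nuclei holding other cells' markers. The cause of these shifts was not tested.

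With 67 to 111 members a library, a gene of 100 UMIs over 2 libraries has wide counting intervals, and most peptide, receptor and immediate early genes were too sparse to compare between conditions.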
